A study of Mus musculus with 47 samples.

Results

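The 10 genes described here are the receptors for glucocorticoids and a set of transcripts that respond to them, chosen by symbol: Nr3c1, Nr3c2, Fkbp5, Sgk1, Tsc22d3, Zbtb16, Pdk4, Cdkn1a, Sult1a1 and Mt2. All 10 were found among the 54281 genes of the deposited TPM table, and all 10 passed the filter on low levels, an average of 1 TPM or more (TPM, a level of transcripts scaled to transcript length and to the library total), which left 14580 genes for testing. They were measured in bulk RNA from the microdissected cortex of 47 male C57BL/6J mice of about 3 months, 1 library per mouse. Of these, 23 mice were fed control chow and 24 were fed PLX5622 at 1200 ppm in AIN-76A chow, both for 10 days, and the composition of the control chow was not given in the sources used here. Mice were kept 4 to a cage under equal hours of light and dark (how cages related to the groups was not given, so cage and group cannot be told apart where they coincide) and were harvested at 6 Zeitgeber times (ZT), counted in hours from lights on: ZT2, ZT6 and ZT10 in the light and ZT14, ZT18 and ZT22 in the dark. Each diet and time had 4 mice, except for control mice at ZT14, where 3 libraries were analysed. PLX5622 is an inhibitor of CSF1R, the receptor that microglia need for survival, and it acts throughout the body. All PLX5622 mice and no control mice ate the drug chow, so loss of microglia and other actions of that chow cannot be told apart.

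Corticosterone is the main glucocorticoid of mice, and as background its level in blood is known to climb towards lights off in these night-active animals and to be lowest around lights on. In the brain it binds the mineralocorticoid receptor (Nr3c2) with high affinity and the glucocorticoid receptor (Nr3c1) with lower affinity, so that the second is engaged mostly near the daily crest and under stress. The bound receptors enter the nucleus and act at glucocorticoid response elements, which are paired copies of the hexamer AGAACA. Corticosterone was not measured in these mice, and CO2 was used before harvest, so the transcripts below are levels of RNA and not of the hormone.

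Sequences before the start sites of Sgk1, Fkbp5 and Mt2 are shown because they hold different motifs and each of these genes was higher in the evening in at least 1 diet, as given further on. They are from the RefSeq promoter table on GRCm38.p6, which holds windows of 300 bases for 8 of the 10 genes (16 windows), and each is the 250 bases before a start site, 5′ to 3′ on the strand of the gene, overlapping no annotated exon of its gene. Sgk1 (chr10:21993640-21993889, plus strand) has in capitals an E-box, CACGTG, and the full palindrome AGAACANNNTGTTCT, here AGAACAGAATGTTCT, whose first bases lie at positions -246 and -189 from the start. Of the 6 windows of Sgk1, this one was chosen because it held the most matches to these motifs before the start. Its other windows held neither the full palindrome nor CACGTG. Fkbp5 (chr17:28486150-28486399, minus strand) has in capitals its only E-box, at -169. Mt2 (chr8:94172368-94172617, plus strand) has in capitals 3 matches to TGCACNC or TGCGCNC, the core of metal response elements, which bind the zinc-sensing factor MTF1.
Sgk1: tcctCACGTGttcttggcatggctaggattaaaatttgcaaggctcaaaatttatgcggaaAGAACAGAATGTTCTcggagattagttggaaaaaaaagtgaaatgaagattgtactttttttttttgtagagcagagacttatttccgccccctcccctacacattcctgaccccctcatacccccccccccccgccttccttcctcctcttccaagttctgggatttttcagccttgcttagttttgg
Fkbp5: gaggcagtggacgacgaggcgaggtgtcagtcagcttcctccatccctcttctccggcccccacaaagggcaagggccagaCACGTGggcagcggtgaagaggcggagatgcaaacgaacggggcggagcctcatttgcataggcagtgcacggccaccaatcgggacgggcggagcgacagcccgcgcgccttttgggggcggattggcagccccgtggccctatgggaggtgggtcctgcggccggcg
Mt2: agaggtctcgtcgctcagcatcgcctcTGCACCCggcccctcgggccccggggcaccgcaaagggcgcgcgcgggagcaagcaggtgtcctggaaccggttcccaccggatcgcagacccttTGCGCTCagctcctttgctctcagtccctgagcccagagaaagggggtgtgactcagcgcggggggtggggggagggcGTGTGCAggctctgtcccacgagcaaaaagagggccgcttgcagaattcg
On both strands, the palindrome occurred in 3 of 32851 windows of all genes (0.00913%), and the only one of them near a gene described here was that of Sgk1. CACGTG was in 7.15% of all windows and a metal response core in 25.7%. The hexamer AGAACA alone, which is part of the palindrome, was in 19% of all windows and in 5 of the 16 here, those of Sgk1, Tsc22d3 and Sult1a1. Such matches describe letters in these windows and say nothing of receptor binding.

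The libraries held 16597987 to 27626161 counts on genes, and mitochondrial transcripts took 6.46% to 10% of them. The median was 18314954 counts in control and 21476967.5 in PLX5622 libraries. The part of this difference in depth in the numbers of genes called per diet was not tested. All 8 microglial markers examined were lower with PLX5622 (limma, adjusted p under 0.05), and their summed level was 370.3 to 579 TPM in control libraries and 18.7 to 89.81 TPM in PLX5622 libraries. By this test 0 of 6 neuronal markers were called, while Gfap of the 6 astrocyte markers and Kl and Ttr of the 8 choroid plexus markers were higher with PLX5622. The choroid plexus list summed to 69.96 to 1194 TPM in control and 149.3 to 1277 TPM in PLX5622 libraries. The part of these markers in the results on the diet was not tested. Many genes had a high TPM at ZT14: 42% of the 14580 genes in control mice and 45.7% in PLX5622 mice had their highest mean at that time. The median-of-ratios factor, which tracks this shift of typical genes, averaged 1.06 and 1.09 at ZT14 in the respective diets against 0.947 to 1.02 in the other groups. In whole tissue, fewer cells of a type and less RNA per cell cannot be told apart.

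Over both diets, 4 of the 10 genes had a daily rhythm, tested in limma by an F test of a cosine and a sine term with a period of 24 h, with adjustment by the Benjamini-Hochberg method over all 14580 genes. They were Tsc22d3 (adjusted p = 7.21e-08), Sgk1 (adjusted p = 0.000563), Fkbp5 (adjusted p = 0.00079) and Sult1a1 (adjusted p = 0.0142). Of all genes tested, 5.26% were called. The fitted curves of Sgk1, Fkbp5 and Tsc22d3 crested between ZT14.2 and ZT15.1, after lights off, and that of Sult1a1 crested later, at ZT18.5 ± 0.912 (SE). Neither receptor passed (adjusted p = 0.719 for Nr3c1 and 0.623 for Nr3c2). Without an adjustment 8 of the 10 had p under 0.05, and so had 19.8% of all genes.

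**Figure D1:**
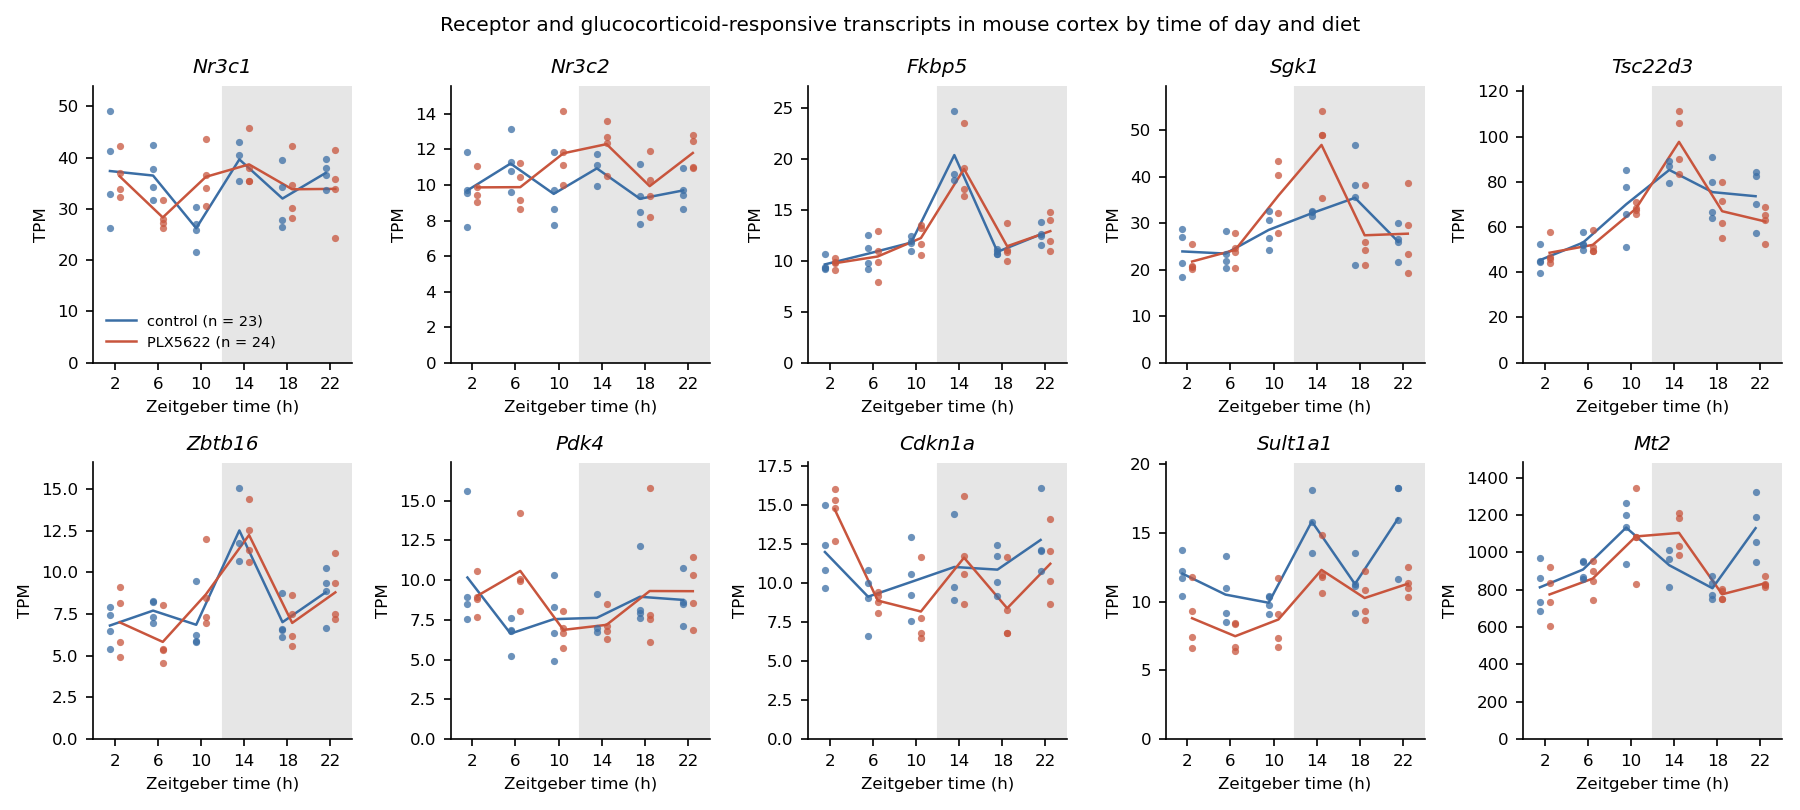
TPM of the 10 genes in each cortex library (points) and group means (lines) against Zeitgeber time, for control (blue) and PLX5622 (red) mice, with the dark phase shaded. All ZT14 points of Fkbp5 lie above every other point of the same diet, while no time of Nr3c1 or Nr3c2 has all its points above every other point of the same diet.

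The receptors come first. Nr3c1 was at 34.6 ± 6.77 TPM (SD, n = 23) in control mice and 34.6 ± 5.75 TPM (SD, n = 24) in PLX5622 mice, and single libraries ran from 21.6 to 49.1 TPM. Its lowest control mean was at ZT10, with 27, 30.4, 21.6 and 25.9 TPM, and its lowest PLX5622 mean was at ZT6, with 28, 26.3, 31.7 and 27.3 TPM. The highest mean was at ZT14 in both diets, where control libraries held 35.4 to 43 TPM and PLX5622 libraries 35.5 to 45.8 TPM, and these overlapped with libraries of other times. In TPM, Nr3c1 at ZT14 was 0.25 log2 units above the mean of the other times in control and 0.20 in PLX5622 mice. This rise depended on the scale. It was 0.14 and 0.08 after median-of-ratios scaling, and 0.13 and 0.01 in counts scaled to the library total. At ZT10 single libraries held 21.6 to 30.4 TPM in control and 30.6 to 43.7 TPM in PLX5622 mice. This difference between diets at a single time was not tested. Nr3c2 was at 10 ± 1.48 TPM in control mice and 10.9 ± 1.58 TPM in PLX5622 mice, with means of the 6 times from 9.23 TPM at ZT18 to 11.2 TPM at ZT6 in control mice. On the per-length scale Nr3c1 was thus above Nr3c2 in every library. Amplitudes of the fitted curves, from mean to crest, were 0.06 ± 0.05 (SE) log2 units for Nr3c1 and 0.06 ± 0.04 for Nr3c2.

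Fkbp5 encodes a co-chaperone of the receptor complex that lowers its affinity for hormone, and it is one of the best known targets induced by the receptor. In control mice it was highest at ZT14, with 18, 18.5 and 24.7 TPM, and lowest at ZT2, with 9.39, 9.35, 9.24 and 10.7 TPM. In PLX5622 mice ZT14 gave 17.1, 16.3, 19.2 and 23.6 TPM, and ZT2 gave 9.83, 9.08, 9.9 and 10.3 TPM. The ZT14 libraries did not overlap with any other library of their diet, since the highest value at other times was 13.8 TPM in control and 14.8 TPM in PLX5622 mice. The ratio of the ZT14 to the ZT2 mean was 2.11 in control and 1.95 in PLX5622 mice. Among all genes, 0.535% in control mice and 0.48% in PLX5622 mice had every ZT14 library above every other library. The remaining 5 times came in the order ZT22, ZT10, ZT18, ZT6 and ZT2 in both diets, and each step in that order was smaller than the pooled SD between mice (1.54 TPM in control and 1.96 TPM in PLX5622 mice). Fkbp5 at ZT14 was 0.81 log2 units above the mean of the other times in control mice and 0.70 above it in PLX5622 mice, and 0.66 and 0.55 above it on the scale of counts scaled to the library total (CPM). With the ZT14 libraries left out, a setting chosen after the values were seen, the rhythm of Fkbp5 was no longer called (limma, adjusted p = 0.32, 3.54% of all genes called), while those of Tsc22d3, Sgk1 and Sult1a1 were (adjusted p = 0.000429, 0.048 and 0.0159).

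Zbtb16, a transcription repressor with zinc fingers that is strongly induced by glucocorticoids in many cells, had a similar profile at a lower level. Its control libraries at ZT14 held 15.1, 10.7 and 11.8 TPM, above every other control library, of which the highest was 10.3 TPM at ZT22. In PLX5622 mice ZT14 gave 12.6, 11.4, 10.6 and 14.4 TPM, which overlapped with 1 library at 12 TPM at ZT10. A single 24-h curve did not pass the test for Zbtb16 (limma, adjusted p = 0.0823). When each ZT had its own mean instead of a curve, Zbtb16 passed (limma, adjusted p = 0.000187), with 11% of all genes called by that test.

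Tsc22d3 encodes GILZ, a leucine zipper protein that mediates part of the anti-inflammatory action of glucocorticoids. It had the smallest p of the 10 genes, and in control mice its crest was broader than that of Fkbp5. This difference in shape was not tested. Control libraries at ZT2 held 44.3, 39.6, 45.1 and 52.4 TPM and at ZT14 87, 89.3 and 79.5 TPM, but ZT18 (64.1 to 91 TPM), ZT22 (57.4 to 84.2 TPM) and ZT10 (51 to 85.4 TPM) reached the same range. In PLX5622 mice ZT14 gave 106, 83.3, 90.1 and 111 TPM, above every other PLX5622 library (79.7 TPM at most), and ZT2 gave 46.9, 57.8, 44 and 45.8 TPM. Fitted amplitudes were 0.40 ± 0.07 (SE) log2 units in control and 0.41 ± 0.06 in PLX5622 mice.

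Sgk1 encodes a kinase that promotes sodium transport and responds to both receptors. In control mice its highest mean, 35.5 TPM, was at ZT18, where libraries spread widely over 21, 47, 38.3 and 35.8 TPM, and ZT14 gave 32.4, 31.6 and 32.6 TPM. In PLX5622 mice the highest mean, 46.9 TPM, was at ZT14, with 54.2, 35.5, 49 and 48.9 TPM, and ZT10 reached 27.8 to 43.4 TPM. The lowest PLX5622 group was ZT2, with 20.1, 20.8, 20.6 and 25.6 TPM. No step between neighbouring times in the control order exceeded the pooled SD of 5.6 TPM, and in PLX5622 mice the steps from ZT14 to ZT10 and from ZT10 to ZT22 did (pooled SD 6.59 TPM). Transcripts of immediate early genes, which report recent neuronal activity (Fos, Junb, Egr1, Arc, Npas4 and Nr4a1), were highest at ZT14 in both diets. They were also high at ZT18 in control mice. Their mean log2(TPM + 1) was 5.63 at ZT14 and 5.4 at ZT18 in control mice, 5.49 at ZT14 and 4.32 at ZT18 in PLX5622 mice, and 3.91 to 4.63 at the other times in both diets. No gene of this list was at 0 in any group, and 3 of the 6 (Arc, Junb and Nr4a1) had a called rhythm over both diets. The summed level of the list was 397 to 631.8 TPM at ZT14 in control and 370.7 to 524.5 TPM in PLX5622 mice, and its part in the differences between times was not tested. Among mice of the same diet and time the list had in TPM a Pearson r of 0.591 with Fkbp5 (permutation adjusted p = 0.000714 over 100 pairs, Spearman rho = 0.533). With Sgk1 it was 0.52 (permutation adjusted p = 0.00258, rho = 0.546), and r was 0.566 and 0.477 without the 2 mice farthest from the median. The list also had an r of 0.568 with Cdkn1a and 0.494 with Nr3c1 (permutation adjusted p = 0.00377 and 0.00843). Sgk1 had an r of 0.569 with the neuronal list (permutation adjusted p = 0.0022). Over the 100 pairs of a gene and a list, fewer passed on other scales, as given further on.

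Sult1a1 (a sulfotransferase for phenolic compounds) had its highest control mean at ZT22, with 11.7, 16 and a pair of libraries at 18.3 TPM, and nearly the same at ZT14, with 15.8, 13.6 and 18.1 TPM. The lowest control group was ZT10, with 10.4, 10.4, 9.78 and 9.1 TPM. In PLX5622 mice ZT14 was highest, with 14.9, 10.6, 11.9 and 11.8 TPM, and ZT6 lowest, with 6.41, 8.47, 8.36 and 6.68 TPM. Libraries of the highest time overlapped with those of other times in both diets.

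Mt2 encodes a metallothionein, a small protein that binds zinc and copper and is induced by metals and by glucocorticoids. It was the most abundant of the 10 genes per length, at 955 ± 172 TPM (SD, n = 23) in control and 906 ± 175 TPM (SD, n = 24) in PLX5622 mice. Control libraries were high at both ZT10 (935.3 to 1263 TPM) and ZT22 (947.7 to 1326 TPM), and PLX5622 libraries at ZT14 (988.4 to 1211 TPM) and ZT10 (831.2 to 1347 TPM). At ZT22 PLX5622 libraries held 812.3 to 875.5 TPM, and the difference between diets at that time was not tested. The daily pattern of Mt2 did not pass the rhythm test (limma, adjusted p = 0.0818). Mt1 and Mt2 are close paralogs, and how the authors' counting shared reads between them was not given, so the level of Mt2 is uncertain. At ZT14 in PLX5622 mice the difference from the other times was 0.37 log2 units in TPM and 0.69 in CPM.

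The last 2 genes, Pdk4 and Cdkn1a, had curves that crested near lights on and did not pass the rhythm test (limma, adjusted p = 0.168 and 0.151). Pdk4, a kinase that restrains the use of pyruvate, ranged from 4.9 to 15.8 TPM, and its group means ran from 6.63 TPM at ZT6 to 10.2 TPM at ZT2 in control mice and from 6.87 TPM at ZT10 to 10.6 TPM at ZT6 in PLX5622 mice. Cdkn1a, the cell cycle inhibitor p21, was at 12.7, 15.3, 16 and 14.8 TPM at ZT2 in PLX5622 mice, against 6.77, 6.5, 7.72 and 11.7 TPM at ZT10. These were the times of its highest and lowest PLX5622 mean, picked after the values were seen. Libraries of ZT14 and ZT22 reached 15.6 and 14.1 TPM. In control mice Cdkn1a was highest at ZT22 (10.8 to 16.1 TPM), within the range of ZT2 (9.66 to 15 TPM).

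**Figure D2:**
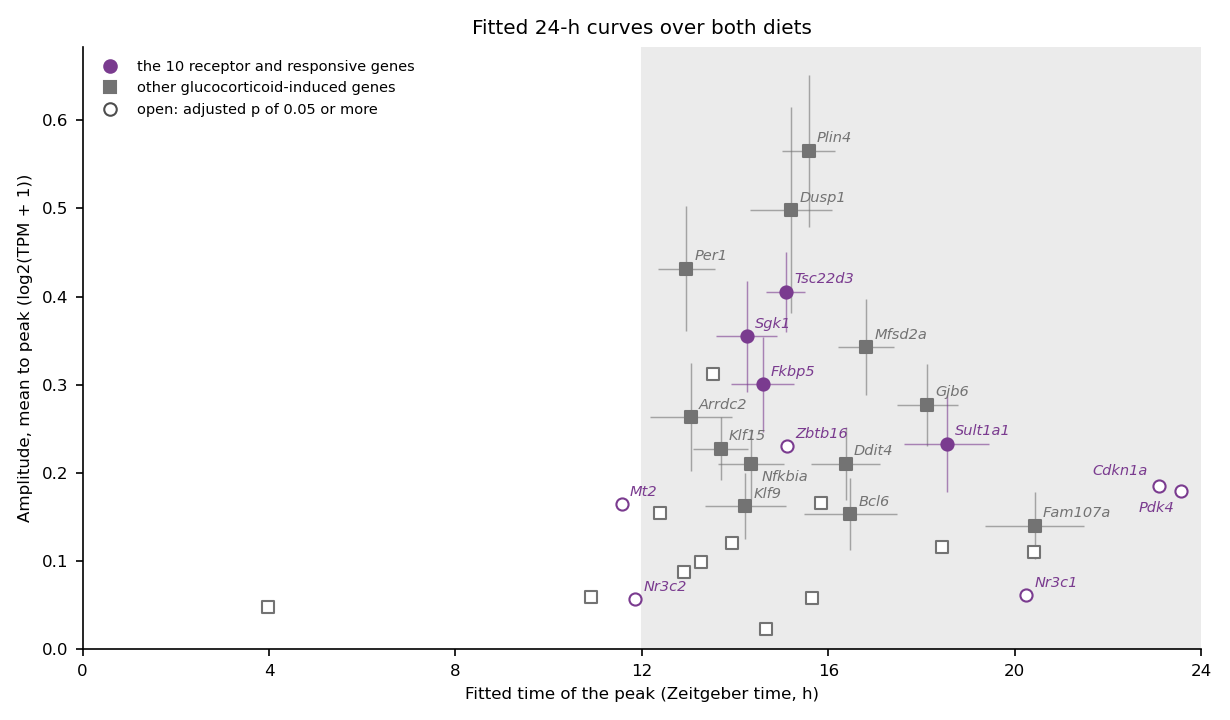
Time of the crest (x axis, Zeitgeber time in hours, dark phase shaded) and amplitude from mean to crest (y axis, log2(TPM + 1)) of the 24-h curve fitted over both diets, for the 10 genes (purple circles) and the 24 other glucocorticoid-induced genes that were tested (grey squares). Filled symbols passed the rhythm test and carry bars of 1 SE; Tsc22d3, Sgk1 and Fkbp5 lie between ZT14.2 and ZT15.1, and Pdk4 and Cdkn1a are open symbols near ZT23.

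To ask about the contrast of the hormone's usual crest and trough directly, the mean of ZT10 and ZT14 was compared with the mean of ZT22 and ZT2 in limma, in a model with 1 mean for each of the 12 groups. In control mice 2 of the 10 genes were higher in the evening, Fkbp5 by 0.45 ± 0.087 (SE, adjusted p = 0.00386) and Tsc22d3 by 0.41 ± 0.099 (adjusted p = 0.0421) on the log2 scale, where 0.466% of all genes were called and 0.281% were called higher. In PLX5622 mice 4 were higher, Sgk1 by 0.72 ± 0.14 (adjusted p = 0.00207), Tsc22d3 by 0.56 ± 0.095 (adjusted p = 0.00049), Mt2 by 0.44 ± 0.089 (adjusted p = 0.00446) and Fkbp5 by 0.41 ± 0.083 (adjusted p = 0.0052), where 1.67% of all genes were called and 1.38% were called higher. None of the 10 was called lower, where 0.185% and 0.288% of all genes were. The median over all genes was 0.033 in control and 0.049 in PLX5622 mice. Of those that did not pass, Zbtb16 differed by 0.23 and 0.36 in control and PLX5622 mice (adjusted p = 0.445 and 0.156), Pdk4 by -0.28 and -0.33 (adjusted p = 0.443 and 0.337) and Cdkn1a by -0.22 and -0.38 (adjusted p = 0.485 and 0.147). The control call of Tsc22d3 was lost in 13 of 47 fits that left out 1 library each (adjusted p up to 0.116, without control ZT22 replicate 1) and the call of Mt2 was lost after median-of-ratios scaling (adjusted p = 0.0511).

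The evening difference was not shown to depend on the diet. The contrast in PLX5622 mice minus that in control mice was called for 0 of the 10 genes (0.00686% of all genes). With unadjusted p-values 2 of the 10 passed, Mt2 with 0.34 (95% interval 0.08 to 0.60, unadjusted p = 0.0126) and Sgk1 with 0.44 (0.04 to 0.85, unadjusted p = 0.031), where 6.52% of all genes did. For Fkbp5 the difference was -0.05 (-0.29 to 0.20) and for Tsc22d3 0.15 (-0.13 to 0.43) log2 units.

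**Figure D3:**
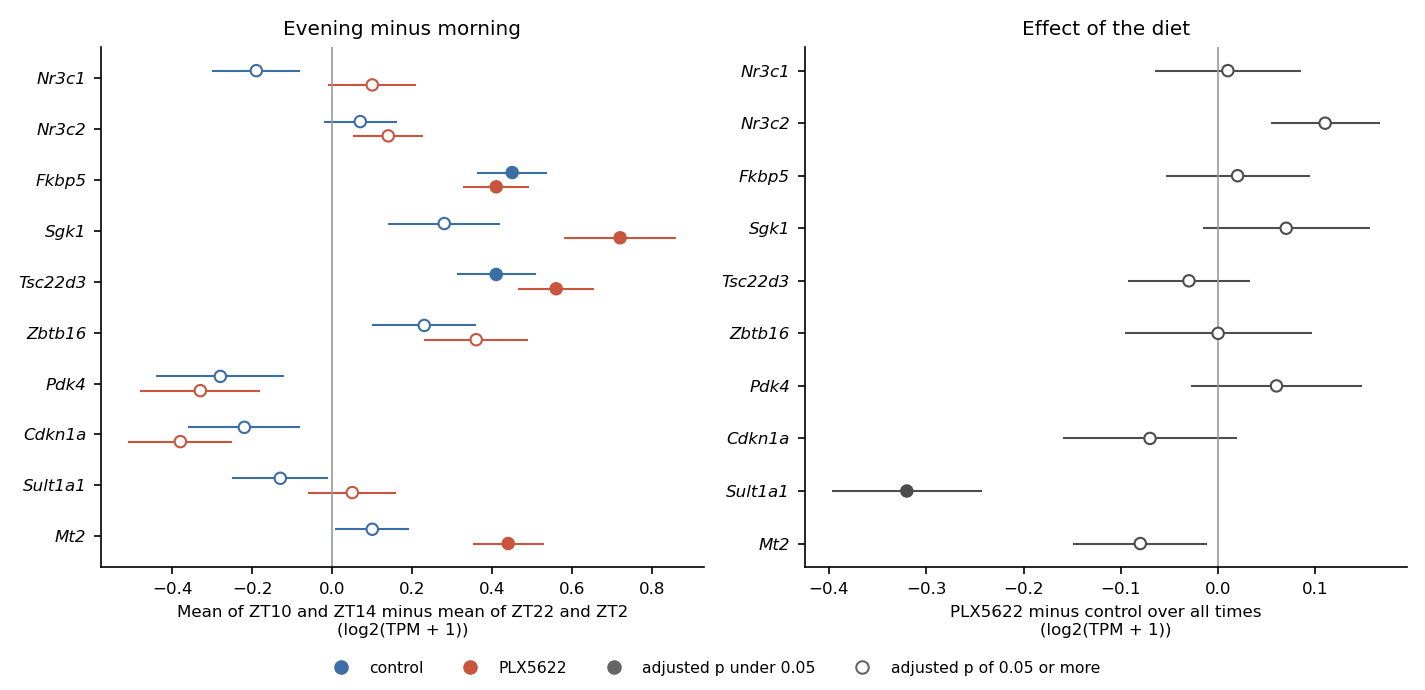
Left, mean of ZT10 and ZT14 minus mean of ZT22 and ZT2 for the 10 genes in control (blue) and PLX5622 (red) mice; right, PLX5622 minus control over all times; both in log2(TPM + 1) with bars of 1 SE, and filled where the adjusted p was under 0.05. Fkbp5 is filled in both diets at 0.45 and 0.41, and Sult1a1 is the only filled symbol of the right panel, at -0.32.

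Across the day, 1 of the 10 transcripts was called as different between the diets. A count of 1 does not set the 10 genes apart from all genes, of which 3.45% were called. Sult1a1 was lower with PLX5622 by 0.32 ± 0.077 (SE) on the log2 scale (log2 difference -0.32, 95% interval -0.47 to -0.17, limma with cosine and sine of ZT as covariates, adjusted p = 0.00684), where 3.45% of all genes were called, 2.58% lower and 0.871% higher. It averaged 12.5 ± 3.03 TPM (SD, n = 23) in control and 9.8 ± 2.29 TPM (SD, n = 24) in PLX5622 mice, and its mean was lower at all 6 times, with log2 differences from -0.45 to -0.12, although single libraries of the diets overlapped (6.41 to 14.9 against 8.54 to 18.3 TPM). The microglial markers fell in the same libraries, as given above, and their part in this difference was not tested. Among mice of 1 diet and time, Sult1a1 and the microglial list had a Pearson r of 0.138 (permutation p = 0.542, adjusted p = 0.661 over 100 pairs) and a Spearman rho of 0.244 (permutation p = 0.187, adjusted p = 0.34) over 47 mice, and r was 0.315 without the 2 mice farthest from the median. Within control mice r was 0.552 and within PLX5622 mice 0.0843, and this difference was not tested. Sult1a1 also had an r of 0.455 with the blood list (permutation adjusted p = 0.0453, Spearman rho = 0.404, adjusted p = 0.0632). The other 9 differences lay between -0.08 (Mt2) and 0.11 (Nr3c2, 95% interval 0.00 to 0.23, adjusted p = 0.301), and for Fkbp5 the difference was 0.02 (-0.13 to 0.17), for Tsc22d3 -0.03 (-0.15 to 0.10) and for Nr3c1 0.01 (-0.14 to 0.16).

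The shape of the daily curve was compared between diets by testing both diet-by-time interaction terms jointly. It was called for 0 of the 10 genes in limma, edgeR and DESeq2, as for 0% of all genes, and 0 of the 10 had an unadjusted p under 0.05 in limma, where 4.59% of all genes did. The smallest unadjusted p was 0.0939, for Sgk1. Fitted crests of Fkbp5 were at ZT14.4 ± 0.997 (SE) in control and ZT14.7 ± 0.946 in PLX5622 mice, those of Tsc22d3 at ZT15.6 ± 0.652 and ZT14.6 ± 0.541, and those of Sgk1 at ZT15.6 ± 1 and ZT13.4 ± 0.793.

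Within each diet, rhythms were also called with JTK_CYCLE, a rank test for cycling. It called 0 of the 10 genes in control mice (4 at an unadjusted p under 0.05, smallest adjusted p = 0.155, for Tsc22d3) and 1 in PLX5622 mice, Tsc22d3 (adjusted p = 0.00281, with 7 at an unadjusted p under 0.05). Of all genes, 0.0754% and 0.61% were called, and 8.53% and 11.1% had an unadjusted p under 0.05. The limma test within a diet called Tsc22d3 in control mice (adjusted p = 0.00125, 0.604% of all genes) and Tsc22d3, Sgk1 and Fkbp5 in PLX5622 mice (adjusted p = 0.000241, 0.0043 and 0.0495, 1.45% of all genes). A call in 1 diet alone is no difference between diets, which the interaction test above did not show.

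Genes that handle the receptor and its hormone were examined next. The 13 genes examined were all tested: the chaperones and co-chaperones Hsp90aa1, Hsp90ab1, Fkbp4, Ptges3, Stip1, Hspa8, Bag1 and Ppid, the enzymes Hsd11b1 and H6pd, which regenerate active hormone inside cells, and the coregulators Ncoa1, Ncoa2 and Ncor1. With limma, 0 of the 13 were called for the rhythm over both diets, the evening contrast in either diet or the effect of the diet. At an unadjusted limma p under 0.05, 2 of the 13 passed the rhythm test and 1 the diet test, where 19.8% and 16.2% of all genes did. With 5.26% of all genes called for the rhythm, 0 of 13 is near the background share.

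Other transcripts that glucocorticoids induce formed a further list. Of 25 listed, 24 were tested (Lcn2 was under the filter), and 12 had a called rhythm over both diets, beside 5.26% of all genes. Of the 6 with the smallest p, Plin4, a coat protein of lipid droplets, had an amplitude of 0.57 ± 0.09 (SE) log2 units with a crest at ZT15.6, and its mean went from 0.491 TPM at ZT6 to 3 TPM at ZT14 in control and from 0.459 to 3.54 TPM in PLX5622 mice. Mfsd2a, a lipid transporter of brain endothelium, crested at ZT16.8, Klf15, a transcription factor of metabolism, at ZT13.7, and the clock gene Per1 at ZT13. Gjb6, a gap junction protein of astrocytes, crested at ZT18.1 and Nfkbia, the inhibitor of NF-kB, at ZT14.3. Per1 held 35.2 to 42.1 TPM at ZT14 in control mice, above every other control library (25.3 TPM at most), and 31.8 to 35.6 TPM in PLX5622 mice, where 1 library at ZT10 reached 33.5 TPM. Per1 is also driven by the clock itself, and members of the list can follow inputs other than the hormone. In the evening contrast, 1 of the 24 was called in control mice (Per1, higher by 0.67 ± 0.14, adjusted p = 0.00812) and 6 in PLX5622 mice, all higher (Arrdc2, Klf15, Mt1, Nfkbia, Per1 and Plin4), beside 0.466% and 1.67% of all genes, with list medians of 0.10 and 0.24. The diet effect was called for 1 of the 24, Tgm2, a transglutaminase, which was lower by 0.23 ± 0.065 (log2 difference -0.23, adjusted p = 0.0328) at 6.95 ± 1.31 TPM in control and 5.79 ± 1.14 TPM in PLX5622 mice. That count is near the background of 3.45%.

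**Figure D4:**
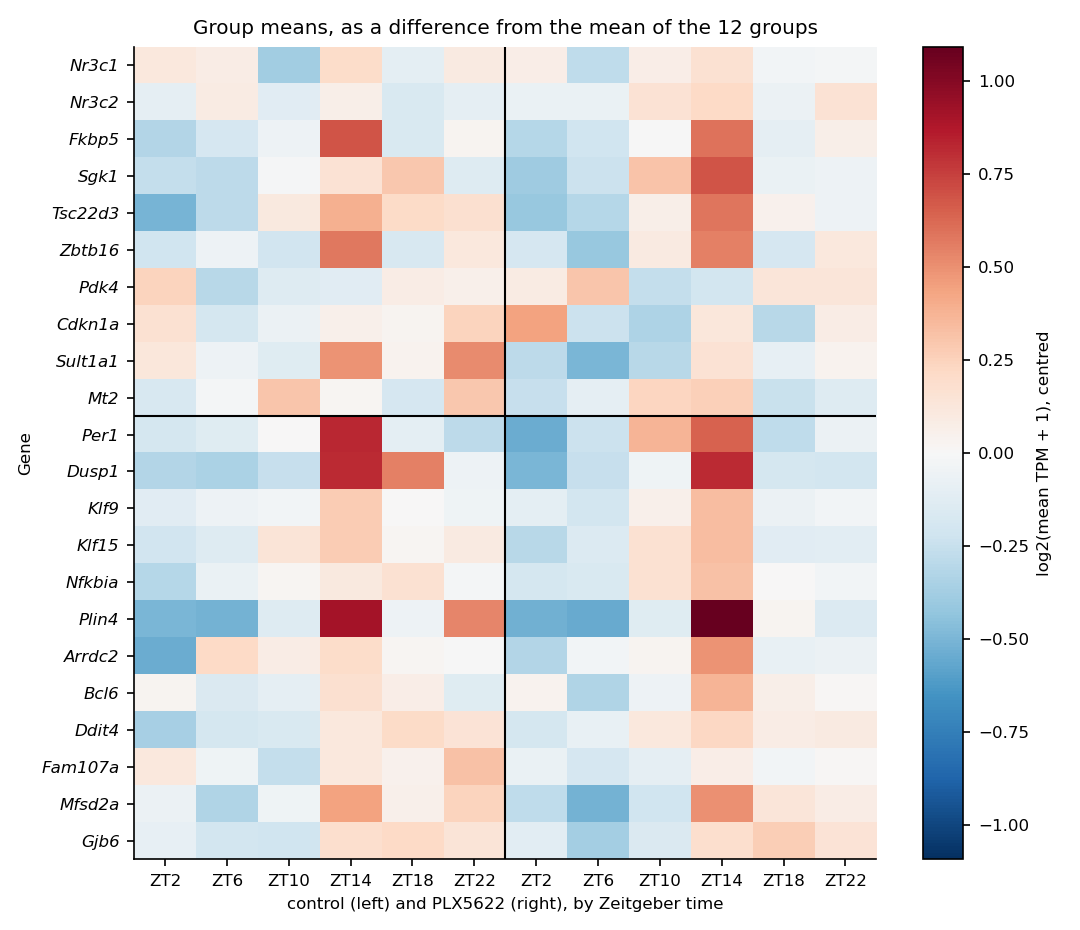
Mean level of the 10 genes (above the line) and the 12 other glucocorticoid-induced genes with a called rhythm (below) in the 12 groups, as log2(mean TPM + 1) minus the mean of the gene over the groups. Columns are Zeitgeber times, with control mice on the left and PLX5622 mice on the right. The ZT14 columns hold the highest mean of Nr3c1, Fkbp5, Tsc22d3, Zbtb16, Per1 and Plin4, among others, in both diets. Of the 10 genes, 4 in control and 8 in PLX5622 mice had their highest mean at ZT14, beside 42% and 45.7% of all genes tested.

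The genes whose 12 group means were most like those of 3 of the 10 genes were ranked by Pearson r over 10550 genes that averaged 5 TPM or more, as a description. For Fkbp5 they were Mxd1 (r = 0.971), Tmem115 (0.969), Zfp668 (0.967), Rnf169 (0.964) and Gba2 (0.964). For Sgk1 they were Nfkbia (0.929), Tob1 (0.915), Net1 (0.898), Cavin2 (0.886) and Hrh3 (0.877), and for Tsc22d3 they were Prr5 (0.955), Sdc4 (0.949), Net1 (0.946), Cadm4 (0.939) and Adipor2 (0.938). Mxd1 was at 8.21 to 8.99 TPM at ZT14 in control mice and at 7.85 to 9.19 TPM in PLX5622 mice, against means of 5.35 and 5.73 TPM at ZT2.

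Whether the genes varied together among mice of the same diet and time was asked after subtraction of the group means, with Fkbp5 as the reference, by permutation of mice within groups. In TPM, 5 of 9 pairs passed after adjustment over the 9: Nr3c1 (Pearson r = 0.53, permutation p = 6e-05, adjusted p = 0.00054, Spearman rho = 0.566, n = 47), Nr3c2 (r = 0.471, adjusted p = 0.00571), Cdkn1a (r = 0.469, adjusted p = 0.0137), Zbtb16 (r = 0.432, adjusted p = 0.0137) and Tsc22d3 (r = 0.331, adjusted p = 0.0251). Spearman rho for the latter 4 was 0.522, 0.48, 0.507 and 0.317. Without the 2 mice farthest from the median of Fkbp5 the r values were 0.51, 0.413, 0.564, 0.351 and 0.277. Within control and PLX5622 mice the r with Nr3c1 was 0.397 and 0.645. The call of Tsc22d3 was lost in 7 of 47 fits that left out 1 library each (adjusted p up to 0.069, without PLX5622 ZT18 replicate 4). These relations rested on the scale. With CPM from the counts, and with TPM rescaled by median of ratios, 0 of the 9 pairs passed, and r with Nr3c1 was 0.104 and 0.208. Several cell type lists moved with the same residuals in TPM. For Nr3c1 r was 0.696 with neuronal, 0.629 with endothelial and 0.637 with mural markers, for Nr3c2 0.626, 0.673 and 0.645, and for Fkbp5 0.584, 0.422 and 0.431. Cdkn1a had an r of 0.63 with neuronal markers, and Mt2 moved with astrocyte markers (r = 0.629). Of 100 pairs of a gene and a cell type list, 22 passed in TPM, 7 in CPM and 8 after median-of-ratios scaling.

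**Figure D5:**
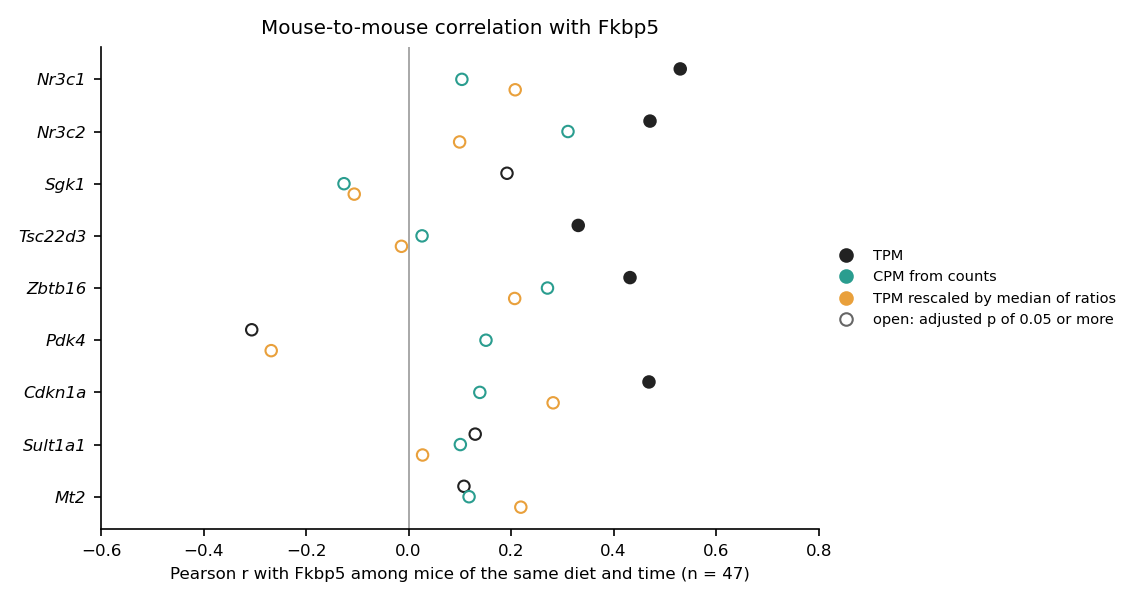
Pearson r of 9 genes with Fkbp5 among 47 mice after subtraction of the mean of each diet and time (x axis), from TPM (black), CPM (green) and rescaled TPM (orange). Filled points passed the permutation test after adjustment over the 9 pairs; 5 black points are filled and none of the other colors.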

How the data were processed

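Cortex RNA of 47 mice was sequenced as paired reads on NovaSeq and HiSeq machines. Per the study's methods, the authors aligned reads with STAR 2.7.0f to GRCm38.p6 and quantified Gencode genes as TPM with Salmon 1.0.0. The second table that the authors deposited is named for FPKM but holds whole-number counts per gene; the labels list STAR, featureCounts, edgeR, limma and mm10, and the counter of this table is not given in the sources used here. All columns were matched to samples by name.

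The main tests used limma 3.58.1 in R 4.3.3 on log2(TPM + 1) of the 14580 genes that averaged 1 TPM or more, with Benjamini-Hochberg adjustment over all of them and a threshold of 0.05. A fold change on this scale understates changes of low genes. The counts were used only for edgeR 4.0.16 (quasi-likelihood) and DESeq2 1.42.0 as alternatives and for CPM, which was computed from them. JTK_CYCLE was implemented anew (period 24 h, adjusted over 6 phases). Correlations used 100000 permutations of mice within groups. All p-values take the mouse as the unit and do not cover differences between cages. Intervals are 95%. Promoters came from RefSeq, with exons checked in GENCODE. Simulated data were used to test limma, edgeR, DESeq2 and JTK_CYCLE. The correlations, ZT as a factor, limma within a diet and the difference of the evening contrast between diets were not simulated. With 200 genes seeded with a 24-h rhythm of amplitude 0.5 among 14580, limma recovered 99.5%. JTK_CYCLE recovered 91% in control and 90% in PLX5622 mice. Amplitudes fitted over both diets were smaller, at 0.41 log2 units for Tsc22d3, 0.35 for Sgk1, 0.30 for Fkbp5 and 0.23 for Sult1a1. Recovery at such amplitudes was not tested. False calls were 6.57% of the rhythm calls in limma, 4.31% in edgeR and 8.26% in DESeq2. Whether these simulated shares hold for the mouse libraries was not tested.

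Libraries of 1 group differed beyond counting noise (chi-square per degree of freedom of at least 4.3 over 69 pairs). The 10 genes, the other lists and the contrasts were chosen with earlier results of these data known. Named beyond the 10 were at most 6 genes per list and comparison by the smallest adjusted p, list members that passed a test, and the 5 genes most like Fkbp5, Sgk1 and Tsc22d3. 1 further gene of the receptor handling list, beyond the 13 named, is not reported here.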

Additional observations from a re-analysis of the deposited data

Results flagged for a closer look

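In 5 of 110 groups of 4 libraries (10 genes, 11 groups) the highest library lay far from the other 3, by a rule that picks out about 1 group in 20, or 5.5 of 110, by chance. Fkbp5 was at 10.7 TPM in control ZT2 replicate 4, against 9.24 to 9.39 TPM in the other 3. Sgk1 was at 25.6 TPM in PLX5622 ZT2 replicate 4, against 20.1 to 20.8 TPM. Zbtb16 was at 9.45 TPM in control ZT10 replicate 2, against 5.83 to 6.26 TPM. Pdk4 was at 15.6 TPM in control ZT2 replicate 1, against 7.57 to 8.92 TPM, and at 12.2 TPM in control ZT18 replicate 3, against 7.59 to 8.09 TPM.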

How the results depend on the processing

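The number of the 10 genes with a daily rhythm over both diets was 4 (5.26% of all genes). It rose to 8 with edgeR and 8 with DESeq2 (11.3% and 13.4% of all genes). It was 7 with ZT as a factor (11% of all genes), 7 with 3 residual principal components and 7 without the ZT18 libraries (10.7% of all genes). It fell to 3 without the ZT6 and to 3 without the ZT10 libraries. The fits without a time were chosen after seeing the data. The count stayed at 4 to 5 when 1 library was left out. The evening count in control mice was 1 with no filter on TPM and 1 to 2 without 1 library. With 3 residual principal components the difference between diets was called for 1 gene, Mt2 (adjusted p = 0.0461), and the diet effect for 2. JTK_CYCLE called 1 and 2 genes in control and PLX5622 mice after median-of-ratios scaling and 1 to 2 in PLX5622 mice without 1 library. By contrast, limma within the diet called 1 and 3 (0.604% and 1.45% of all genes) and edgeR 4 and 5. Where no share of all genes stands beside a count, that count cannot be set against its background. Pairs with Fkbp5 fell from 5 to 0 with CPM and 0 with median-of-ratios scaling, and cell type pairs from 22 to 7 and 8.

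Some values that passed no test changed sign, and so did 1 called r, that of Tsc22d3. With edgeR and DESeq2 the evening contrast in PLX5622 mice was -0.09 and -0.08 for Nr3c1 and -0.01 and -0.01 for Sult1a1 (-0.00 with median-of-ratios scaling), the difference between diets was -0.08 and -0.08 for Nr3c1 (0.28 in limma) and 0.28 and 0.29 for Pdk4 (-0.06 in limma), and the diet effect was -0.05 and -0.05 for Fkbp5 (-0.01 with median-of-ratios scaling). The diet effect of Nr3c1 was -0.02 with median-of-ratios scaling and -0.00 with ZT as a factor. The r with Fkbp5 was -0.126 (CPM), -0.106 (median of ratios) and -0.131 (replicate block) for Sgk1, -0.0139 (median of ratios) for Tsc22d3 and 0.151 (CPM) for Pdk4, against 0.192, 0.331 and -0.306 in TPM. Without 1 library, the evening contrast of Sult1a1 in PLX5622 mice ran from -0.02 to 0.12, the difference between diets from -0.10 to 0.02 for Fkbp5 and -0.16 to 0.02 for Pdk4, and the diet effect from -0.02 to 0.03 for Nr3c1, -0.01 to 0.05 for Fkbp5 and -0.03 to 0.03 for Zbtb16. The cause of these changes was not tested.

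Replicate numbers were not taken to pair the mice, by a rule that asked all same-numbered libraries to deviate together. The mean r of same-numbered libraries was 0.0512 over 253 pairs, with a lowest value of -0.247. Over 759 pairs of different numbers the mean was -0.0171. This rule cannot exclude a pairing, because noise alone can turn single pairs negative. Of 47 libraries, 24 correlated best with their own number, more than an even spread over the 4 numbers would give. That is a hint from the data and not from the design. With the number as a replicate block, pairs with Fkbp5 fell from 5 to 2, limma within the diet called 1 gene in control and 3 in PLX5622 mice, and the counts of the comparisons over both diets did not change. Groups of 3 or 4 mice limit what single times can show.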
